A study of Mus musculus with 9 samples.

Results

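Expression of 10 mouse genes of the acute phase response was followed in RNA sequencing of the mammary carcinoma line 4T1: the serum amyloid A genes Saa1, Saa2 and Saa3, haptoglobin (Hp), lipopolysaccharide-binding protein (Lbp), complement component C3, complement factor B (Cfb), the orosomucoid genes Orm1 and Orm2, and the serine protease inhibitor Serpina3n. They were chosen by symbol: a row of the deposited expression table was taken when its Ensembl gene identifier mapped to a listed symbol, which found all 10 genes among 52550 rows. The table holds 9 libraries in 3 groups of 3. The LY500307+PD-1 group received LY500307, an agonist of oestrogen receptor beta, together with the PD-1 treatment. The PD-1 group received the PD-1 treatment without LY500307, and the Control group is labelled as control. PD-1 is an inhibitory receptor of T cells, and the series title places the study among treatments for tumours that resist checkpoint blockade. All 9 libraries carry the source label 4T1, a line derived from a mammary tumour of a BALB/c mouse. The labels give no dose, time or agent behind the name PD-1, do not say whether cells were cultured or taken from tumours, and do not say whether replicates came from separate cultures or animals. The p-values therefore reflect only how these libraries vary, and that variation may be technical. In PD-1 replicates 2 and 3 the treatment is labelled PD-2 and PD-3, and their titles placed them in the PD-1 group.

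The acute phase response is a change in plasma proteins during infection, injury or cancer. It is best known from the liver, where interleukin 6 acting through STAT3, and interleukin 1 and tumour necrosis factor acting through NF-kB and C/EBP factors, raise transcription of these genes. Several of them are also transcribed outside the liver: macrophages and epithelial cells make C3 and factor B, fat makes haptoglobin, and Saa3 of the mouse is known mainly from extrahepatic tissue. The amyloid A proteins travel with lipoproteins and act on leukocytes, haptoglobin binds free haemoglobin, and the lipopolysaccharide-binding protein hands bacterial lipopolysaccharide to CD14. C3 is the protein on which all complement pathways converge, and factor B supplies the protease of the alternative pathway's C3 convertase.

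The promoters are shown because the 10 genes share known regulators, and the 4 printed cover genes highest in Control 3 (C3), PD-1 3 (Saa3) and LY500307+PD-1 2 (Orm2 and Serpina3n). RefSeq promoter sequence, on build GRCm38.p6, was at hand for 6 of the 10 genes; Hp, Lbp, Cfb and Orm1 are named only. The 250 bases before the transcription start are printed 5′ to 3′ on the gene's strand for 4 genes, with capitals marking a match to a C/EBP-type motif (TTGCNNAA) in Saa3, C3 and Orm2 and to an NF-kB-type motif (GGG, then NN, TT, N and CC) in Serpina3n.
Saa3, chr7:46715677-46715926, minus strand: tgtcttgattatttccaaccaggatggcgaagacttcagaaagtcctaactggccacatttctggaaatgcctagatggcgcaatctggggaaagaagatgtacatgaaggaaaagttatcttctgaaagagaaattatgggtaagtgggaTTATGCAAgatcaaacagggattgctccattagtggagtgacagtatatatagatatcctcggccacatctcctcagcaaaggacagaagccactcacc
C3, chr17:57228137-57228386, minus strand: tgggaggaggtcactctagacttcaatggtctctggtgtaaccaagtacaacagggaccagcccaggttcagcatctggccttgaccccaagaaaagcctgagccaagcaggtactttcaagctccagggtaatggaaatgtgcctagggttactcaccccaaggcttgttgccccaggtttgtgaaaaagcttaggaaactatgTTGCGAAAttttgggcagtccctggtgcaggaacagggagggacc
Orm2, chr4:63362199-63362448, plus strand: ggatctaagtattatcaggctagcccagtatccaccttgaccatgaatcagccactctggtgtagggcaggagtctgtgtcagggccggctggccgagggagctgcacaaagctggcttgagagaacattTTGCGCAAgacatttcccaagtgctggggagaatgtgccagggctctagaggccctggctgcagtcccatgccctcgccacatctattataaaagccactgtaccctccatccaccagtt
Serpina3n, chr12:104406458-104406707, plus strand: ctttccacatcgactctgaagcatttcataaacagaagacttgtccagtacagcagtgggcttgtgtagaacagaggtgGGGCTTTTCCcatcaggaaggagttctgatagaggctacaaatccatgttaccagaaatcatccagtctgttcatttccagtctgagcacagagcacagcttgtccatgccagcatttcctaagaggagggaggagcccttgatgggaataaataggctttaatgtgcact

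Each motif was searched on both strands. A C/EBP-type match lay in 5 of the 6 promoters, while 9.56% of 32851 mouse promoters of the same length held it. Saa1 and Saa2 are among the 5, and their windows are near-identical copies, so they do not count as separate cases. The matched letters lay 45 to 38 bases before the start in C3, 99 to 92 bases in Saa3 and 120 to 113 bases in Orm2. Saa1 and Saa2 both held TTGCACAA, which began 182 and 183 bases before the RefSeq start of each gene. All these distances are from RefSeq starts, which differ from the GENCODE positions given below for Saa2, Saa3 and Serpina3n. The Saa2 window ran to base 46751832 of chromosome 7, and the Saa3 window also reached into its GENCODE gene. The Serpina3n window held no C/EBP-type match; its NF-kB-type match, a motif found in 4.11% of promoters, lay 171 to 162 bases before the start. A STAT-type motif (TTCNNNGAA), present in 7.02% of promoters, was matched in 0 of the 6. These matches are letters in a window, and no binding was measured.

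The deposited values are FPKM, a level scaled to gene length and to the library's mapped fragments, a unit inferred from the values. FPKM sums ran from 348764 to 370214 per library, and 20701 to 21480 genes were above 0. Fragment counts could not be recovered from the table, so the sequencing depth is unknown and low values carry no counting interval. Over all tested genes LY500307+PD-1 2 and Control 3 were the least alike of any pair of libraries, with r = 0.936 of log2(FPKM + 1), and these libraries hold the extremes of several genes below. The libraries held markers of cells other than carcinoma cells. Summed FPKM of 10 epithelial and carcinoma markers ran from 2172 to 4466, that of 12 monocyte and macrophage markers from 323 to 1077, and that of 14 neutrophil markers from 172 to 791. Of 12 hepatocyte markers 11 were in the table, none reached 1 FPKM in any library, and Ttr, Cyp2e1, Cyp3a11 and Cps1 were listed at 0 in all 9. In bulk RNA, fewer cells of a type and less RNA per cell cannot be told apart.

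C3 was the most abundant of the 10 genes per kilobase, ranking 424th by mean FPKM among 52550 rows, with Cfb at rank 1035. C3 lies on chromosome 17 from 57203970 to 57228136 on the minus strand (build GRCm38, GENCODE M21 annotation, which also gives the positions below). C3 stood at 98.2, 19.7 and 146 FPKM in LY500307+PD-1 replicates 1, 2 and 3, at 88.1, 105 and 134 FPKM in PD-1, and at 40.6, 88.0 and 273 FPKM in Control. The lowest library was in the LY500307+PD-1 group and the highest in Control, so the PD-1 values sat inside the range of each of the other groups. Group means were 87.9 ± 63.7 FPKM in LY500307+PD-1, 109 ± 23.0 FPKM in PD-1 and 134 ± 123 FPKM in Control (SD, n = 3 each). The Control SD came from replicate 3, whose C3 level was above every other library.

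Cfb lies on the same chromosome from 34856374 to 34862518, also on the minus strand. Its level was 39.7, 20.0 and 92.5 FPKM in LY500307+PD-1, 35.5, 49.6 and 35.9 FPKM in PD-1, and 24.2, 27.7 and 124 FPKM in Control. The extremes were the same libraries as for C3, with LY500307+PD-1 2 lowest and Control 3 highest. The annotated gene Gm20547 overlaps Cfb on the same strand over 6107 bases, was listed at 0 to 0.293 FPKM, and could share reads with it. Per kilobase, C3 exceeded Cfb in 8 of 9 libraries, and the ratio of C3 to Cfb was 2.48, 0.989 and 1.58 in LY500307+PD-1, 2.49, 2.12 and 3.72 in PD-1, and 1.68, 3.17 and 2.21 in Control. The exception was LY500307+PD-1 2, where both genes were at their lowest and stood near equal.

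C3 and Cfb moved together across the 9 libraries on the log2(FPKM + 1) scale, with Pearson's r = 0.85 (exact 2-sided permutation p = 0.0046, adjusted p = 0.046 over 30 relations) and Spearman's rho = 0.95 (exact permutation p = 0.000353, adjusted p = 0.0106). Without Control 3 and LY500307+PD-1 2, the libraries farthest from the median of C3, r was 0.73. The correlation of deviations from the group means was 0.90, with an adjusted p of 0.0833. Its exact test permuted orderings only within groups, so the unadjusted p could not fall below 0.0046. With a pseudocount of 0.1 the adjusted p was 0.0657. The C3 and Cfb proteins act in the same convertase. Of 5 pairs among the 10 genes set against each other in this way, C3 with Cfb alone passed the adjusted threshold of 0.05. The other pairs of genes that passed the filter below, given without a test, ran from r = -0.60 (Hp with C3) to r = 0.84 (Lbp with Cfb). Between them lay Lbp with C3 at r = 0.68, Saa3 with Cfb at r = 0.05 and Hp with Cfb at r = -0.42.

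Lbp lies on chromosome 2 from 158306493 to 158332852 on the plus strand. It was measured at 5.95, 3.39 and 9.48 FPKM in LY500307+PD-1, at 4.92, 4.38 and 7.68 FPKM in PD-1, and at 3.38, 1.21 and 26.7 FPKM in Control. Control held both the lowest and the highest library, and 22.1-fold separated them. Means were 6.28 ± 3.06 FPKM in LY500307+PD-1, 5.66 ± 1.77 FPKM in PD-1 and 10.4 ± 14.1 FPKM in Control (SD, n = 3 each). Control 3, the library with the most Lbp, was also the highest for C3 and Cfb.

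Hp did not follow that order. The gene, on chromosome 8 from 109575128 to 109579172 on the minus strand, stood at 5.73, 45.0 and 7.52 FPKM in LY500307+PD-1, at 6.84, 3.11 and 14.0 FPKM in PD-1, and at 6.53, 4.59 and 5.84 FPKM in Control. LY500307+PD-1 2 was high, at 45.0 FPKM against 3.11 to 14.0 FPKM in the other 8 libraries, and the remaining LY500307+PD-1 values lay among those of PD-1. Means were 19.4 ± 22.2 FPKM in LY500307+PD-1, 7.97 ± 5.52 FPKM in PD-1 and 5.65 ± 0.979 FPKM in Control (SD, n = 3 each). Hp and Lbp, which both encode plasma proteins that bind a ligand released in injury or infection, had r = -0.05 over the libraries (exact permutation p = 0.880, adjusted p = 0.909; rho = 0.23, exact permutation p = 0.552, adjusted p = 0.662). Without PD-1 3 and LY500307+PD-1 2, r was 0.32.

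Serpina3n, which in the mouse inhibits granzyme B and other serine proteases, had its highest value in the same library as Hp. The gene is on chromosome 12 from 104406729 to 104414329 on the plus strand. Levels were 0.421, 8.71 and 0.659 FPKM in LY500307+PD-1, 0.818, 0.251 and 3.62 FPKM in PD-1, and 0.173, 0.536 and 0.793 FPKM in Control. LY500307+PD-1 2 was the highest and PD-1 3 the next, as for Hp, and the other 7 libraries were under 1 FPKM. Means were 3.26 ± 4.72 FPKM in LY500307+PD-1, 1.56 ± 1.8 FPKM in PD-1 and 0.501 ± 0.311 FPKM in Control (SD, n = 3 each). Serpina3n belongs to a multigene cluster, and its longest transcript was 76.7 to 81.5% identical to those of other Serpina3 genes, so reads may have been split between them.

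The orosomucoid genes, which encode the plasma carrier alpha-1-acid glycoprotein, were close to absent. Orm1, on chromosome 4 from 63344560 to 63348163, was listed at 2.26 FPKM in LY500307+PD-1 2 and at 0 in the other 8 libraries. Orm2, from 63362449 to 63365878 on the same chromosome, was at 0, 0.453 and 0.139 FPKM in LY500307+PD-1, at 0 in the 3 PD-1 libraries, and at 0.289, 0 and 0 FPKM in Control. Both genes were highest in LY500307+PD-1 2, the library that was also highest for Hp and Serpina3n. The Orm1 and Orm2 transcripts were 91.0% identical, so their split is uncertain.

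Saa3, on chromosome 7 from 46711998 to 46715700 on the minus strand, was the amyloid A gene with the highest level per kilobase in every library. It stood at 8.07, 7.55 and 9.80 FPKM in LY500307+PD-1, at 4.33, 8.22 and 27.5 FPKM in PD-1, and at 6.29, 9.10 and 7.49 FPKM in Control. PD-1 held the lowest and the highest library, while the 7 other libraries lay between 6.29 and 9.80 FPKM. Means were 8.47 ± 1.18 FPKM in LY500307+PD-1, 13.3 ± 12.4 FPKM in PD-1 and 7.63 ± 1.41 FPKM in Control (SD, n = 3 each). Saa3 was the only one of the 5 tested genes whose extremes were both in PD-1.

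Saa1 and Saa2, whose products are the main circulating amyloid A proteins of the mouse, were low. They lie near Saa3 on chromosome 7, from 46740497 to 46742980 and from 46751790 to 46754313. Saa1 was at 0.699, 0.566 and 2.33 FPKM in LY500307+PD-1, at 0.221, 0.348 and 0.851 FPKM in PD-1, and at 0, 0.695 and 1.09 FPKM in Control. Saa2 was at 0.112, 0.535 and 0.703 FPKM in LY500307+PD-1, at 0.265, 0.183 and 0.489 FPKM in PD-1, and at 0, 0.422 and 0.420 FPKM in Control. Both were highest in LY500307+PD-1 3 and listed at 0 in Control 1, and the groups overlapped. Their transcripts were 93.5% identical, with a longest shared run of 76 bases, so the sum is safer than either value: 0.811, 1.10 and 3.03 FPKM in LY500307+PD-1, 0.486, 0.531 and 1.34 FPKM in PD-1, and 0, 1.12 and 1.51 FPKM in Control. In a fit with the copies summed, the log2 difference was 0.51 (SE 0.41) for LY500307+PD-1 over PD-1 and 0.51 (SE 0.41) for LY500307+PD-1 over Control.

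**Figure D1:**
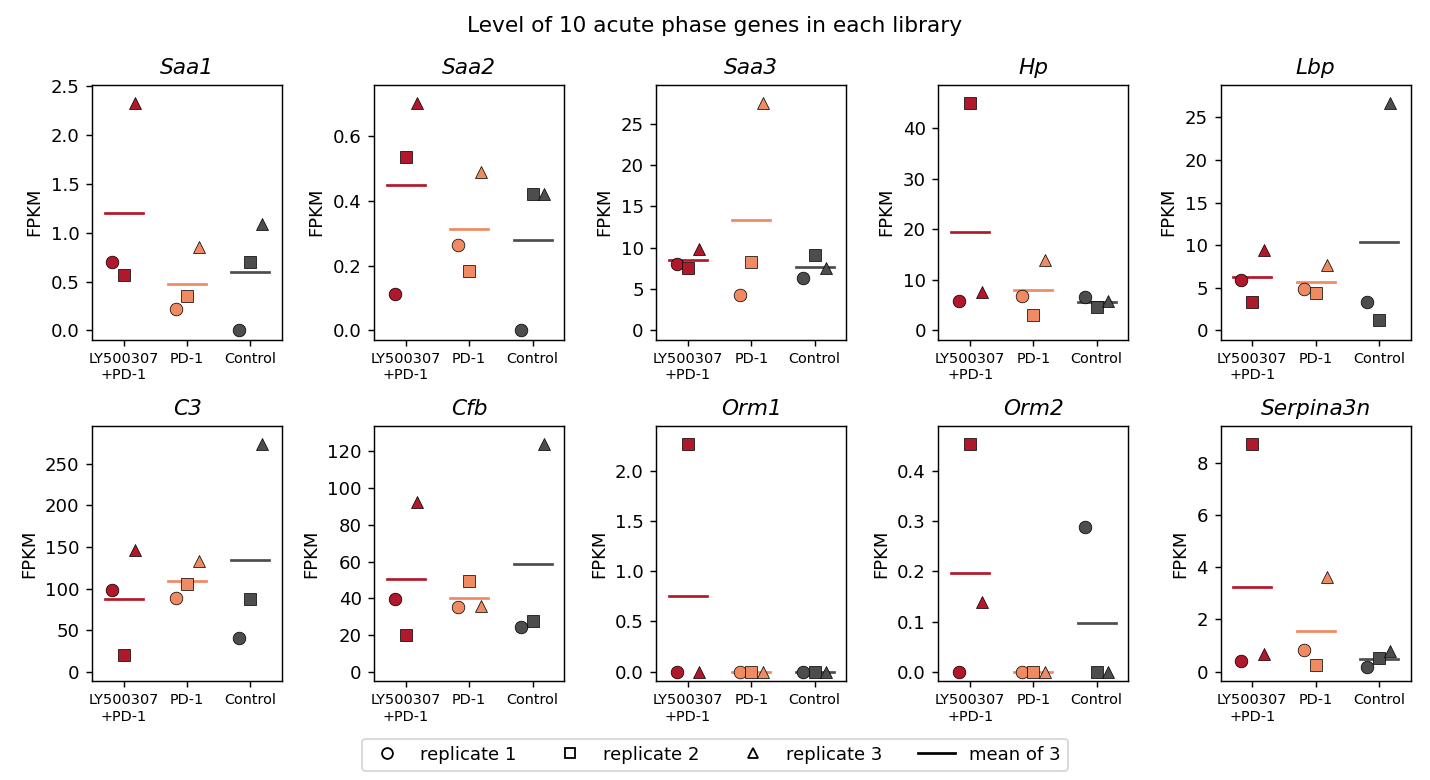
FPKM of each of the 10 genes (vertical axis, a linear scale of its own per gene) in LY500307+PD-1, PD-1 and Control; points are libraries, shapes mark the replicate number and lines the mean of 3. Hp, Serpina3n, Orm1 and Orm2 were highest in LY500307+PD-1 2, C3, Cfb and Lbp in Control 3, and Saa3 in PD-1 3 at 27.5 FPKM.

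Differences between the groups were tested with limma on log2(FPKM + 1) over 13990 genes that reached 1 FPKM in at least 3 libraries, with all 9 libraries in the fit. Of the 10 genes 5 passed that filter: Saa3, Hp, Lbp, C3 and Cfb. Saa1 and Serpina3n reached 1 FPKM in 2 libraries, Orm1 in 1, and Saa2 and Orm2 in 0. Differences are given on the log2(FPKM + 1) scale, where those of low genes come out too small.

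The first question was what LY500307 added to the PD-1 treatment. In LY500307+PD-1 against PD-1, 0 of the 5 genes passed an adjusted p of 0.05 by limma, where 0% of the 13990 genes tested did; at an unadjusted p under 0.05 the test took 398 genes, or 2.84%, and 0 of the 5. The largest of the 5 differences was that of Hp, at 0.82 (SE 0.70, 95% interval -0.77 to 2.40). C3 differed by -0.69 (SE 0.80, 95% interval -2.50 to 1.12), Saa3 by -0.25 (SE 0.50, -1.38 to 0.88), Cfb by 0.08 (SE 0.66, -1.43 to 1.58) and Lbp by 0.07 (SE 0.79, -1.72 to 1.86). All 5 genes had overlapping groups, while 7.6% of tested genes had groups that did not overlap. Without LY500307+PD-1 2 the Hp difference was -0.05 and that of C3 was 0.16, and without PD-1 3 that of Saa3 was 0.43.

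For LY500307+PD-1 against Control, which asks what the combination did, limma again called 0 of the 5 genes and 0% of all genes, with 561 genes (4.01%) at an unadjusted p under 0.05. Hp differed by 1.07 (SE 0.70, 95% interval -0.52 to 2.65), and by 0.20 without LY500307+PD-1 2. C3 differed by -0.58 (SE 0.80, 95% interval -2.39 to 1.23). Its sign turned without either extreme library, to 0.26 without LY500307+PD-1 2 and 0.14 without Control 3. Saa3 differed by 0.14 (SE 0.50, -0.99 to 1.27), Lbp by 0.09 (SE 0.79, -1.70 to 1.88) and Cfb by -0.06 (SE 0.66, -1.56 to 1.44). The 5 genes overlapped between the groups, against 7.94% of tested genes that did not.

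For PD-1 against Control, the same fit called 0 of the 5 genes and 0% of all genes, with 342 genes (2.44%) at an unadjusted p under 0.05. Saa3 differed by 0.39 (SE 0.50, 95% interval -0.74 to 1.52), and by -0.29 without PD-1 3. Hp differed by 0.25 (SE 0.70, -1.34 to 1.83), C3 by 0.11 (SE 0.80, -1.70 to 1.92), Lbp by 0.02 (SE 0.79, -1.77 to 1.81) and Cfb by -0.14 (SE 0.66, -1.64 to 1.37). All 5 overlapped, against 6.68% of tested genes that did not. The 3 comparisons share libraries and are not independent. Over the 5 genes the median log2 difference was 0.07 for LY500307+PD-1 against PD-1, 0.09 for LY500307+PD-1 against Control and 0.11 for PD-1 against Control, where the medians of all tested genes were 0.00, 0.00 and -0.01.

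**Figure D2:**
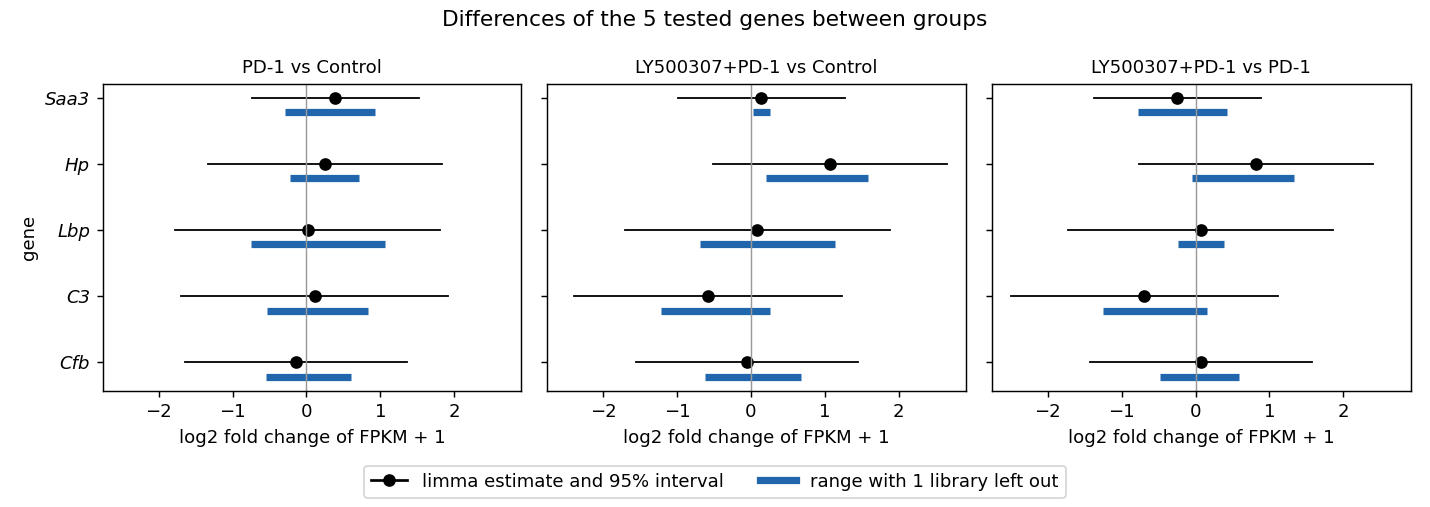
Log2 difference of the 5 tested genes on the log2(FPKM + 1) scale in the 3 comparisons; points are limma estimates, black bars 95% intervals and blue bars the range of estimates with 1 library left out. Every black interval crosses 0, as for Lbp with -1.72 to 1.86 in LY500307+PD-1 against PD-1, and the blue bar of C3 there runs from -1.26 to 0.16.

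With no filter, 27447 genes were fitted and the low genes gained an estimate. Serpina3n differed by 0.37 (SE 0.75) for LY500307+PD-1 over PD-1, by 0.94 (SE 0.75) for LY500307+PD-1 over Control and by 0.57 (SE 0.75) for PD-1 over Control. Saa1 differed by 0.51, 0.44 and -0.07 in those comparisons, each with an SE of 0.36. None of the 10 genes passed an adjusted p of 0.05 in that fit.

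The width of these intervals comes from the spread within groups. The SD of log2(FPKM + 1) over the 9 libraries was 0.656 for Saa3, 0.851 for Cfb, 1.01 for Lbp, 1.02 for Hp and 1.07 for C3, where the median tested gene had 0.208. That placed the 5 genes between the 96.5th and the 99.3rd percentile of spread among the genes tested, a description of these libraries. This SD includes differences between groups as well as the spread within them. Group membership accounted for 22.5% of the variance of Hp, 9.0% of C3, 6.71% of Saa3, 0.480% of Cfb and 0.154% of Lbp, against a median of 17.0% over all tested genes. The summed level of the 10 genes was 159, 108 and 269 FPKM in LY500307+PD-1, 141, 171 and 224 FPKM in PD-1, and 81.4, 132 and 439 FPKM in Control. C3 and Cfb made up 75.8 to 90.4% of that sum in 8 libraries and 36.7% in LY500307+PD-1 2.

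The replicate number went with the level of some of these genes. Of the 10 genes, Saa1, Lbp and C3 were highest in replicate 3 of all 3 groups, a pattern chosen after the values were seen. It held for 2 of the 5 tested genes (C3 and Lbp) and for 5.03% of the 13990 tested. The summed neutrophil markers were also highest in replicate 3 of each group, at 223, 246 and 489 FPKM in LY500307+PD-1, 528, 172 and 791 FPKM in PD-1, and 250, 326 and 384 FPKM in Control. So were the summed T and NK cell markers, at 79.5, 90.6 and 79.3 FPKM in replicate 3 of LY500307+PD-1, PD-1 and Control. The summed acute phase cytokines and receptors, and the transcription factor and feedback genes, had the same order. The remaining cell type lists did not. The labels tie the number to no batch, and its part in the levels was not tested. With the mean of each replicate number removed, r was 0.72 for C3 with Cfb (exact permutation within numbers, adjusted p = 0.347).

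**Figure D3:**
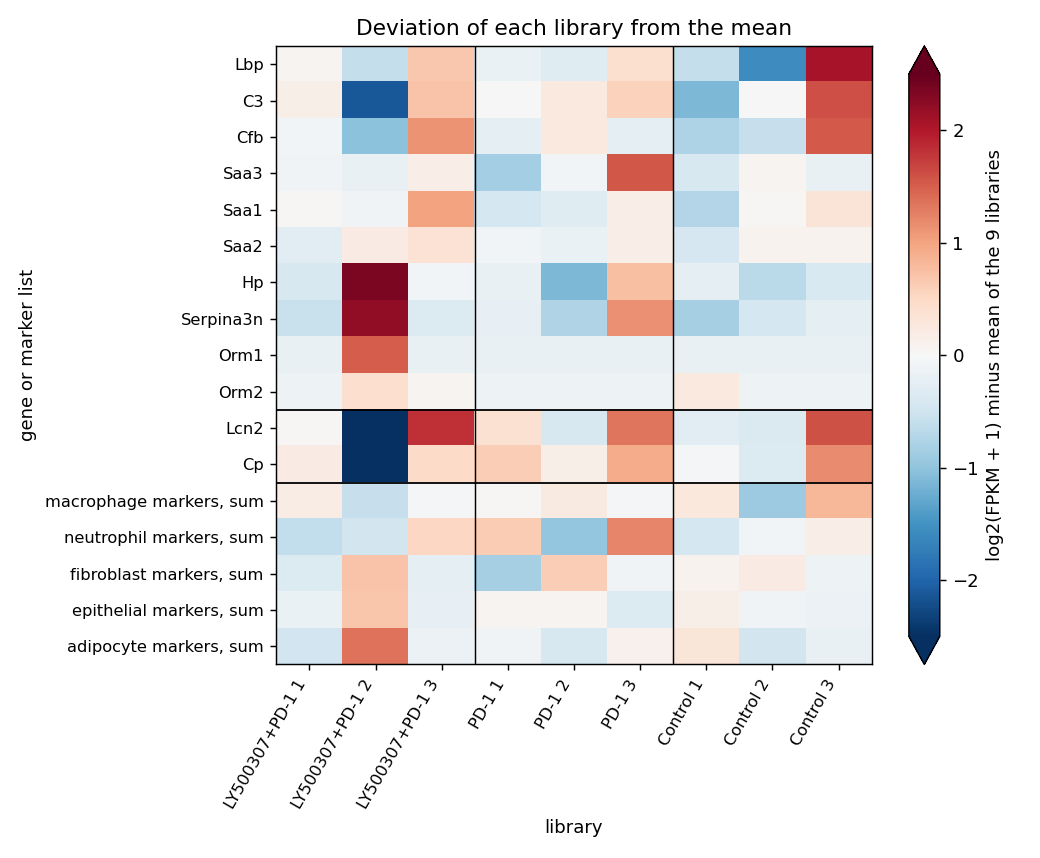
Heat map of log2(FPKM + 1) minus the gene's mean over 9 libraries, for the 10 genes, Lcn2, Cp and 5 summed marker lists (rows) in LY500307+PD-1, PD-1 and Control libraries (columns), with the colour scale ending at 2.5 on either side. LY500307+PD-1 2 shows Hp and Serpina3n high beside C3, Cfb, Lcn2 and Cp low, with Hp at 45.0 FPKM and C3 at 19.7 FPKM.

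Of the other acute phase proteins, 11 of 30 listed genes were tested and 0 were called in either direction in any comparison, with 8 of 11 higher in LY500307+PD-1 than in PD-1 (median log2 difference 0.17), 7 of 11 higher in LY500307+PD-1 than in Control (0.10) and 6 of 11 higher in PD-1 than in Control (0.06). Of all tested genes 51.0%, 49.4% and 48.3% were higher in these comparisons. Another 10 genes, with the C-reactive protein gene Crp, serum amyloid P (Apcs) and the fibrinogen genes Fga and Fgg among them, were listed at 0 in all 9 libraries. Lcn2, the iron-sequestering lipocalin, was at 127, 6.22 and 447 FPKM in LY500307+PD-1, 162, 93.8 and 317 FPKM in PD-1, and 102, 97.3 and 379 FPKM in Control. Ceruloplasmin (Cp), the copper-carrying ferroxidase, was at 59.6, 4.67 and 72.5 FPKM in LY500307+PD-1, 78.9, 57.1 and 99.1 FPKM in PD-1, and 50.6, 40.5 and 117 FPKM in Control. Both were lowest in LY500307+PD-1 2, as C3 and Cfb were. The metallothioneins Mt1 and Mt2, which bind zinc and copper, had values in LY500307+PD-1 that did not overlap those in PD-1, with log2 differences of 0.40 (SE 0.33) and 0.52 (SE 0.41) and an adjusted p of 1.

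The cytokines that induce the response were low or variable. Of 19 listed genes for these cytokines and their receptors, 16 were tested and 0 were called. Il6 averaged 0.562 ± 0.556 FPKM in LY500307+PD-1, 0.229 ± 0.156 FPKM in PD-1 and 0.351 ± 0.210 FPKM in Control, and Il1b averaged 19.5 ± 7.27 FPKM in LY500307+PD-1, 36.8 ± 20.7 FPKM in PD-1 and 28.1 ± 6.58 FPKM in Control (SD, n = 3 each). Oncostatin M (Osm), a cytokine of the interleukin 6 family, averaged 1.20 ± 0.841 FPKM in LY500307+PD-1, 2.56 ± 0.667 FPKM in PD-1 and 1.05 ± 1.23 FPKM in Control, with LY500307+PD-1 below PD-1 without overlap (log2 difference -0.77, SE 0.43, limma adjusted p = 1). Among 18 tested of 20 transcription factor and feedback genes 0 were called, and the level of Stat3 was even, at 19.6 ± 0.807 FPKM in LY500307+PD-1, 19.4 ± 0.710 FPKM in PD-1 and 19.7 ± 1.59 FPKM in Control. Cebpb, whose product binds the C/EBP-type motif marked above, averaged 301 ± 93.0 FPKM in LY500307+PD-1, 399 ± 41.2 FPKM in PD-1 and 317 ± 76.0 FPKM in Control. Its lowest library was LY500307+PD-1 2 at 208 FPKM, where C3 was lowest and Orm2 highest, both with the motif, and its highest was PD-1 3 at 434 FPKM. Socs3, the feedback inhibitor of STAT3 signalling, averaged 51.2 ± 7.06 FPKM in LY500307+PD-1, 49.1 ± 2.38 FPKM in PD-1 and 53.7 ± 13.0 FPKM in Control.

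Around C3 and Cfb, 15 of 24 complement initiation and component genes were tested and 0 were called, with 2 of 15 higher in LY500307+PD-1 than in PD-1 (median log2 difference -0.12), 4 of 15 higher in LY500307+PD-1 than in Control (-0.12) and 8 of 15 higher in PD-1 than in Control (0.02), against the shares of all genes given above. C1qa, a chain of the classical pathway's recognition protein, averaged 415 ± 102 FPKM in LY500307+PD-1, 447 ± 91.1 FPKM in PD-1 and 518 ± 295 FPKM in Control. Cfp, or properdin, which stabilises the convertase that factor B forms, averaged 32.8 ± 7.36 FPKM in LY500307+PD-1, 31.1 ± 2.54 FPKM in PD-1 and 38.3 ± 20.2 FPKM in Control. Of 11 regulators 5 were tested and 0 called: clusterin (Clu), an inhibitor of the terminal complex, averaged 102 ± 2.52 FPKM in LY500307+PD-1, 129 ± 25.3 FPKM in PD-1 and 154 ± 76.0 FPKM in Control. Of 19 receptors for these proteins and their products 16 were tested and 0 called, with C3ar1, the receptor of the C3a fragment, at 11.2 ± 2.70 FPKM in LY500307+PD-1, 11.8 ± 1.00 FPKM in PD-1 and 12.1 ± 7.32 FPKM in Control. C1qa, Cfp and C3ar1 were all highest in Control 3, like C3 and Cfb. Over all related lists, groups did not overlap for 6 of 81 tested genes in LY500307+PD-1 against PD-1, or 7.41%, where 7.6% of all tested genes did not.

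Marker scores of 5 cell types were set against the 5 tested genes. The adipocyte score used only 2 of its 10 listed markers, Fabp4 and Lipe, because the others, such as Adipoq, did not pass the filter. On it LY500307+PD-1 2 stood at 0.516 and Control 1 at 0.484, so its relations cover fat cells poorly. Summed FPKM of the macrophage markers was 690, 408 and 591 in LY500307+PD-1, 619, 711 and 585 in PD-1, and 728, 323 and 1077 in Control, so the libraries with the least and the most Lbp were also those with the least and the most macrophage markers. Lbp correlated with the mean macrophage score at r = 0.90 (exact 2-sided permutation p = 0.0034, adjusted p = 0.046 over 30 relations; rho = 0.72, exact permutation p = 0.0369, adjusted p = 0.196). Without Control 2 and Control 3, r was 0.38, so the relation rests on those libraries. The mean epithelial score ran against C3, at r = -0.87 (exact permutation p = 0.00153, adjusted p = 0.046; rho = -0.82, exact permutation p = 0.0108, adjusted p = 0.138) and at r = -0.81 without PD-1 3 and LY500307+PD-1 2. Of 25 relations between the 5 tested genes and 5 marker scores, these 2 passed. Both also passed after quantile normalization, with exact permutation adjusted p = 0.0447 for Lbp and 0.0246 for C3. Neither passed under the other settings. The adjusted p of Lbp with the macrophage score was 0.0657 with a pseudocount of 0.1 and 0.197 for deviations from group means, and that of C3 with the epithelial score was 0.128 and 0.0694. For deviations from replicate-number means the adjusted p was 0.194 for Lbp and 0.438 for C3. For both kinds of deviations the exact test permuted only within groups or numbers, so its unadjusted p could not fall below 0.0046. C3 with the epithelial score was at that floor for deviations from group means. The part of either cell type in the levels of Lbp and C3 was not tested.

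LY500307+PD-1 2 differed from the other libraries in the markers of other tissues, and these genes were chosen after their values were seen. Krt5, a keratin of basal epidermal cells, was at 64.4 FPKM there against 0.0544 to 11.5 FPKM in the other 8 libraries, and Krt14, its partner, at 471 FPKM against 37.1 to 141 FPKM. Adiponectin (Adipoq), made by fat cells, was at 2.91 FPKM there and at 0 to 0.259 FPKM in the others, and the summed adipocyte markers were 26.0 FPKM against 6.55 to 12.0 FPKM. Cfd, the fat-derived protease that activates factor B, was at 29.6 FPKM in that library and at 0 to 0.869 FPKM in the other 8. Cd163, the macrophage receptor for haptoglobin bound to haemoglobin, was at 12.1 FPKM there and at 0.281 to 2.37 FPKM elsewhere. The summed macrophage markers, with Cd163 among them, were not high there, at 408 FPKM against 323 to 1077 FPKM in the other 8 libraries. The part of these cells in the Hp, Serpina3n and Orm1 levels of that library was not tested. The 9 hepatocyte sums lay between 0.0102 and 0.634 FPKM, with the upper value in LY500307+PD-1 2.

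**Figure D4:**
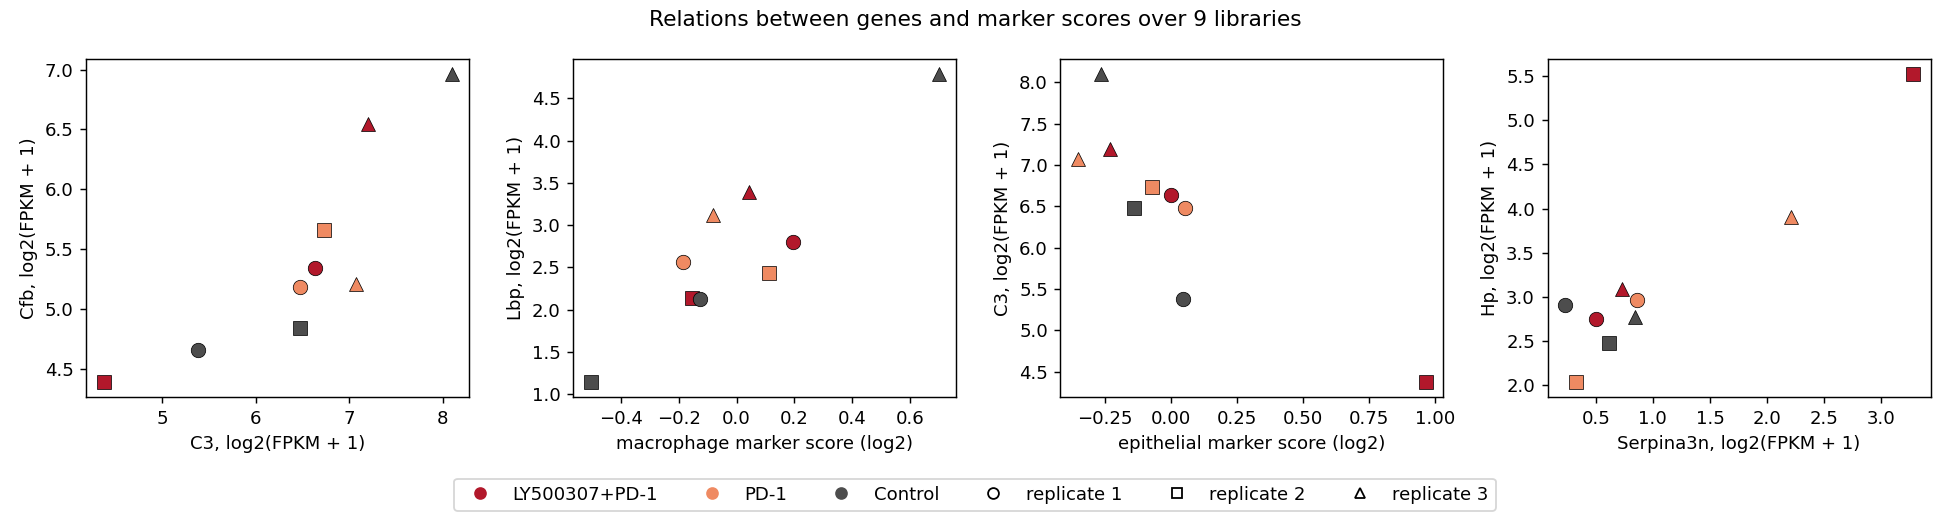
Scatter plots on the log2(FPKM + 1) scale over 9 libraries (points; colours mark LY500307+PD-1, PD-1 and Control, shapes the replicate): Cfb against C3, Lbp against the macrophage score, C3 against the epithelial score and Hp against Serpina3n. Cfb climbs with C3 (r = 0.85), Control 2 and Control 3 mark the ends of the Lbp plot (r = 0.90), and LY500307+PD-1 2 lies apart in the plots of C3 with the epithelial score (r = -0.87) and of Hp.

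The likeness rule took the mean of the 5 tested genes after each was standardized, by centring log2(FPKM + 1) and dividing by its SD. That mean was compared with 7197 genes that had a mean of at least 5 FPKM. The closest over 9 libraries were Csf3r at r = 0.96, Mfsd1, Rsad2 and Rtca at r = 0.93 and Lamp1 at r = 0.91. Csf3r, the receptor of granulocyte colony-stimulating factor, was highest in Control 3 at 15.3 FPKM and lowest in Control 1 at 4.95 FPKM. These correlations are descriptions over the same 9 libraries, picked as the highest of many.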

How the data were processed

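RNA from 9 libraries was ribosome-depleted and prepared with a stranded total RNA kit, per the labels' protocols. The values the authors deposited, 1 table of 52550 Ensembl genes by 9 libraries, were taken as FPKM from the values themselves, because the file names no unit. Per the submitters' processing notes, CASAVA 1.8, Bowtie2, DESeq2 and mm9 were named, without a role for any of them. How genes were counted, on which annotation and whether by strand is not given in the sources used here. At the best step, 14.6 to 22.7% of low values came within 0.02 of whole reads, so reads were not recovered, no count test was run and depth is unknown.

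The identifiers were paired with symbols for 52403 rows. The 13990 genes that reached 1 FPKM in 3 or more libraries were tested on log2(FPKM + 1) with limma 3.58.1 in R 4.3.3 (trend and robust options, 2-sided), all 9 libraries sharing the spread, with Benjamini-Hochberg adjustment and a threshold of 0.05. The test was checked on simulated data. Correlations used exact permutation over 9 libraries with scipy 1.17.1 and were adjusted over 30 relations. A marker score is the mean over a list's tested markers of log2(FPKM + 1) minus the marker's mean. Transcript identity was computed with Biopython 1.88 on GENCODE M21 transcripts, and promoters came from RefSeq.

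The 10 genes and all lists were chosen with earlier results of these data known. Beside the 10 genes, the text names by rule the 4 most abundant genes of each related list. The rule also takes a fixed set of cytokine, transcription factor and feedback genes and the 2 most abundant markers of each cell type. It adds the 5 genes most like the mean of the standardized tested genes. Genes at 0 and markers of LY500307+PD-1 2 named outside that rule were chosen after their values were seen. Alternatives were a pseudocount of 0.1, no filter, quantile normalization, plain eBayes, only the 6 libraries compared, summed near-identical copies, a replicate block, deviations from group or replicate-number means and leaving out each library.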

Additional observations from a re-analysis of the deposited data

How the results depend on the processing

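Under alternatives that kept all 9 libraries, and with only the 6 libraries compared, limma called 0 of the 5 genes. All 90 and 15 log2 differences kept their direction, but most of that count was fixed in advance. Only the pseudocount of 0.1 and quantile normalization could alter a difference of group means, and under these no direction turned. The other settings, with the 6-library fit among them, leave the difference itself unchanged and alter only its test. Leaving out each library in turn turned the direction of 22 of 90. In LY500307+PD-1 against PD-1 these values ran from -0.78 to 0.43 for Saa3, -0.049 to 1.34 for Hp, -0.24 to 0.39 for Lbp, -1.26 to 0.16 for C3 and -0.48 to 0.59 for Cfb. In LY500307+PD-1 against Control they ran from 0.03 to 0.26 for Saa3, 0.20 to 1.58 for Hp, -0.69 to 1.14 for Lbp, -1.22 to 0.26 for C3 and -0.62 to 0.68 for Cfb. In PD-1 against Control they ran from -0.29 to 0.92 for Saa3, -0.22 to 0.71 for Hp, -0.76 to 1.07 for Lbp, -0.53 to 0.83 for C3 and -0.55 to 0.60 for Cfb. Genes called over the whole table then numbered 0 to 2 in LY500307+PD-1 against PD-1, 0 to 2 in LY500307+PD-1 against Control and 0 to 1 in PD-1 against Control, none of them among the 5. With quantile normalization 1 of 5 pairs and 2 of 25 marker relations passed, as in the main setting. With a pseudocount of 0.1, 0 of 5 pairs and 0 of 25 marker relations passed, where 1 and 2 had passed. The counts were the same with deviations from group means and from replicate-number means (the latter chosen after seeing the data). For deviations, orderings were permuted only within groups or numbers, so p could not fall below 0.0046. A single relation at that floor cannot pass adjustment over 30 relations, so these counts say little about whether the relations held. The correlations of C3 with Cfb were 0.85 with the pseudocount, 0.90 for group deviations and 0.72 for number deviations, and the cause of the losses was not tested. Deviations from replicate-number means reversed 6 correlations that had not passed: Saa1 with Saa3 (-0.20), Lbp (-0.52) and Cfb (-0.063) with the neutrophil score, Lbp with the fibroblast (0.015) and epithelial (0.22) scores, and Saa3 with the adipocyte score (0.071). The correlation of Saa3 with the macrophage score was 0.010 with a pseudocount of 0.1 and -0.04 as reported. A replicate block called 0 genes, as without it; over all tested genes 3 of 9 same-numbered pairs correlated over 0.1 (r from -0.12 to 0.27), so the numbers were not taken as pairs, although the own number was the best match in 12 of 18 cases, where no preference gives 6. With depth unknown, low values such as those of Saa2, Orm1 and Orm2 cannot be bounded.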

Other observations

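The 5 genes most like Hp across the 9 libraries, among the same 7197 genes, were chosen after their values were seen. They were Krt10 (r = 0.94), Lor (0.92), Cox5a (0.92), Egr1 (0.92) and Lrg1 (0.91). Of these, Lor and Krt10 encode products of the outer epidermis, and the others do not. Loricrin (Lor), a protein of the cornified skin layer, was at 0.879, 49.1 and 1.43 FPKM in LY500307+PD-1, at 0.190, 0.130 and 1.21 FPKM in PD-1, and at 0, 0 and 0.303 FPKM in Control. Keratin 10 (Krt10), of the suprabasal epidermis, was at 2.90, 43.9 and 4.94 FPKM in LY500307+PD-1, at 3.01, 1.84 and 4.46 FPKM in PD-1, and at 2.50, 3.22 and 3.25 FPKM in Control. All 5 of these genes were highest in LY500307+PD-1 2, as Hp was, and their part in the Hp level was not tested. Lrg1, a leucine-rich glycoprotein of plasma, was at 6.31, 24.6 and 9.98 FPKM in LY500307+PD-1, at 8.37, 5.83 and 12.6 FPKM in PD-1, and at 7.09, 5.89 and 12.4 FPKM in Control.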
